A study of Mus musculus with 12 samples.

Results

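CD62Llo PSGL1lo helper T cells were compared with naive CD4 T cells, using 6 of the 12 arrays of the series: the 3 arrays titled CD62Llo PSGL1lo and the 3 titled CD62Lhi, CD44lo. The samples were taken by their titles, and every one of 18193 named genes was tested. The comparison and the gene lists were chosen with earlier results of these data known. All cells came from the spleens of female MRL/Faslpr mice, a lupus-prone strain with a mutation in Fas, which encodes a death receptor, and all were sorted as TCRb+ CD4+ B220- cells. The CD62Llo PSGL1lo cells (called PSGL1lo cells from here on) were also CD44+ and came from mice aged 16 to 24 weeks. The naive cells were CD62Lhi CD44lo and came from mice aged 6 to 8 weeks, so population and age cannot be told apart in any value against naive. A pair of further CD44+ populations of the older mice, CD62Llo PSGL1hi and CD62Lhi PSGL1hi (3 arrays each), served as reference points. Every group carries the Fas mutation, and how many mice were pooled in a sort is not given in the sources used here.

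CD62L and PSGL1 are adhesion molecules: CD62L brings lymphocytes into lymph nodes, and PSGL1, encoded by Selplg, binds selectins and holds cells in tissue traffic. Activated CD4 T cells that lose both are known to collect near B cell follicles or outside them in lupus-prone mice. There they give B cells signals such as CD40 ligand, interleukin 21 and interleukin 4, a programme directed by the repressor Bcl6 in follicular helper cells. Naive cells, by contrast, keep a quiescence programme that involves Klf2, Satb1 and Lef1 and recirculate through lymphoid tissue.

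Each deposited value is a ratio: the median of a probe set over the 12 arrays is set to 1. Ratios can be compared between arrays for 1 gene, not between genes, and whether a low ratio lies above the array's background is not known. Differences are on the log2 scale ± SE of the fit, and p-values are limma's, adjusted by Benjamini-Hochberg over all 18193 genes. A gene counted as risen or fallen where the adjusted p was under 0.05. Titles speak of technical replicates and the design text of independent sorts, so the p-values cover no more than the spread among these arrays, which may be technical. The median SD between the 3 arrays was 0.148 on the log2 scale for PSGL1lo and 0.104 for naive cells. In bulk RNA, fewer cells of a type and less RNA per cell cannot be told apart.

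The genes of the sorting markers were as the gates ask. Selplg, the PSGL1 gene, had ratios of 0.118, 0.127 and 0.153 in the PSGL1lo arrays and of 1.15, 1.12 and 1.02 in the naive arrays. Cd44, the receptor that marks antigen-experienced cells, had ratios of 1.33, 1.08 and 1.4 in PSGL1lo cells and of 0.0842, 0.0779 and 0.0752 in naive cells. The 2 groups lay apart for both genes, in opposite directions. Of the T cell markers, Cd3d and Cd3e differed by 0.11 ± 0.13 (adjusted p = 0.624) and 0.21 ± 0.09 (adjusted p = 0.102; 0.0425 to 0.0477 with array centring, array weights or the mean of all probe sets). Cd3g was called higher with overlapping arrays (0.36 ± 0.12, adjusted p = 0.0424; not called with only the 6 arrays or without 1 of 6 single arrays), and Cd4 rose by 0.64 ± 0.10 (adjusted p = 8.12e-05). Fas itself had ratios of 1.31, 1.41 and 1.15 in PSGL1lo and 1.00, 0.795 and 0.872 in naive cells and was 0.53 ± 0.14 higher (adjusted p = 0.0113; 0.0655 without naive replicate 2).

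In all, 4221 genes differed between PSGL1lo and naive cells (23.2% of those tested), 1976 of them higher in PSGL1lo cells (10.9%) and 2245 lower (12.3%). The larger differences ran mostly upward: 772 genes rose and 443 fell by over 2-fold, 126 rose and 43 fell by over 8-fold, and 20 rose and 2 fell by over 32-fold. The balance of all calls turned without PSGL1lo replicate 2, when 2427 genes were higher and 1840 lower, and to a smaller extent without naive replicate 1 (1856 higher and 1755 lower). The median log2 difference over all tested genes was -0.06.

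**Figure D1:**
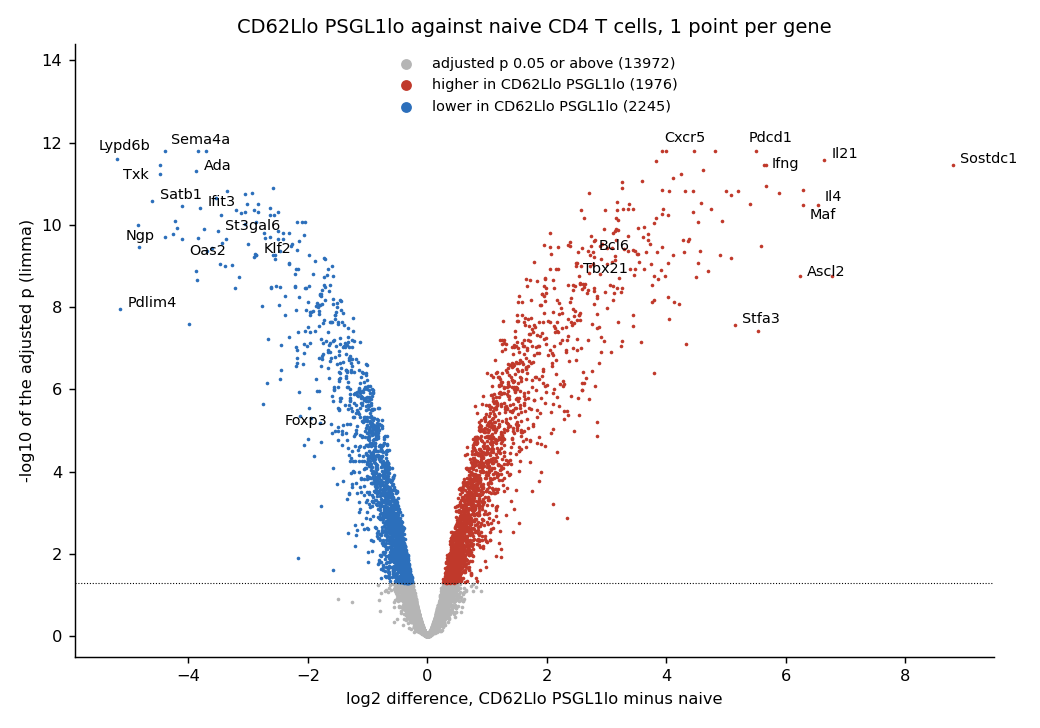
Each point is 1 of 18193 genes, with the log2 difference of PSGL1lo minus naive cells across and -log10 of the limma adjusted p upward; the dotted line marks an adjusted p of 0.05. The 1976 genes higher in PSGL1lo cells (red) reach further from 0 than the 2245 lower ones (blue), with Sostdc1 at 8.79 and Lypd6b at -5.20 at the ends.

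Genes of B cell help led the rises. Of 28 measured members of a list for B cell help and follicular helper cells, 24 were higher and 1 was lower than in naive cells, with a median difference of 2.32, where 10.9% of all tested genes were higher and 12.3% lower. The list was chosen with earlier results of these data known and holds Sostdc1, so this contrast is no independent support. The largest rise of any gene was that of Sostdc1, which encodes a secreted antagonist of BMP and Wnt signals. Its ratios were 22.2, 14.7 and 19.7 in the 3 PSGL1lo arrays against 0.0455, 0.0387 and 0.0418 in the 3 naive arrays, a 443-fold difference (log2 8.79 ± 0.28, adjusted p = 3.46e-12). Every PSGL1lo array lay far above every naive array.

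Among the helper cytokines, Il21, which drives B cell growth and plasma cell formation, had ratios of 2.87, 2.05 and 2.46 in PSGL1lo and 0.0223, 0.0244 and 0.0266 in naive cells, a rise of 6.64 ± 0.20 (adjusted p = 2.6e-12). Il4, the cytokine of IgG1 and IgE switching, had ratios of 18.9, 11.7 and 20.9 against 0.194, 0.161 and 0.184 and rose by 6.54 ± 0.26 (adjusted p = 3.29e-11). The second PSGL1lo array was the lowest of the 3 for both cytokines, and for neither did the groups overlap. Cd40lg, whose product is the contact signal for B cells, had overlapping ratios of 0.963, 1.09 and 1.23 in PSGL1lo and 0.96, 0.993 and 1.06 in naive cells and differed by 0.12 ± 0.11 (adjusted p = 0.529). Tnfsf13b, which encodes the B cell survival factor BAFF, rose by 4.32 ± 0.16, from 0.206, 0.137 and 0.174 in naive to 4.21, 3.15 and 2.93 in PSGL1lo arrays (adjusted p = 1.48e-11; 1 of 2 other probe sets was called in the same direction). It was also 1.34 ± 0.16 above CD62Llo PSGL1hi cells (adjusted p = 2.18e-05).

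The transcription factors of the programme rose by different amounts. Ascl2, a basic helix-loop-helix factor that starts follicular helper differentiation, went from 0.621, 0.466 and 0.441 in naive to 50.5, 29.4 and 37.0 in PSGL1lo arrays (6.24 ± 0.36, adjusted p = 1.71e-09). Bcl6, the repressor that defines follicular helper cells, had ratios of 0.685, 0.672 and 0.621 in naive and 4.3, 4.06 and 4.89 in PSGL1lo cells, a 6.68-fold rise (2.74 ± 0.14, adjusted p = 3.29e-10). Maf, which activates Il21 and Il4, rose by 6.28 ± 0.25 (adjusted p = 3.27e-11), Batf by 2.39 ± 0.16 and Tox by 2.25 ± 0.17 (adjusted p = 7.67e-09 and 3.22e-08). PSGL1lo and naive arrays did not overlap for any of these 5 genes. Bcl6 and Ascl2 were also above the other CD44+ cells, by 1.95 ± 0.14 and 4.38 ± 0.36 against CD62Llo PSGL1hi cells (adjusted p = 6.49e-08 and 4.18e-07). Maf and Tox differed there by 0.55 ± 0.25 (adjusted p = 0.235) and 0.39 ± 0.17 (adjusted p = 0.198), values that did not pass the threshold.

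**Figure D2:**
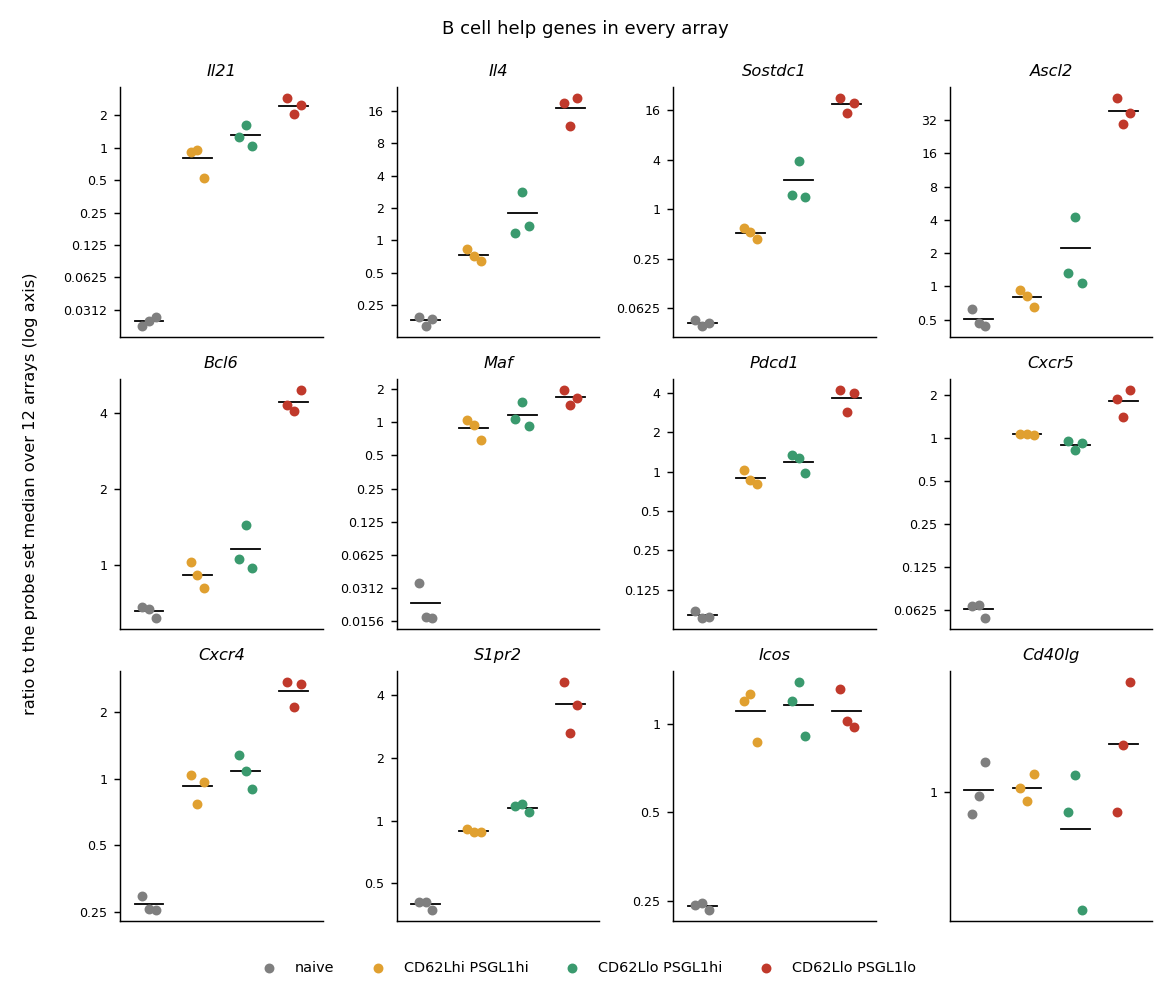
Ratios of 12 B cell help genes in every array (log axis, 1 point per array, a bar at the mean of each population). Red PSGL1lo points lie above all other points for Il4, Il21, Sostdc1, Ascl2, Bcl6, Pdcd1, Cxcr4, Cxcr5 and S1pr2, the 3 CD44+ populations lie together for Icos, and the groups overlap for Cd40lg.

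Of 23 chemokine and S1P receptor genes 7 were higher and 4 lower than in naive cells (10.9% and 12.3% of all genes), with a median of 0.05. Against CD62Llo PSGL1hi cells 3 were higher and 10 lower (4.55% and 6.17% of all genes), with a median of -0.21. Against CD62Lhi PSGL1hi cells 3 were higher and 11 lower (6.7% and 8.1% of all genes), with a median of -0.32. Cxcr5, which guides cells to the CXCL13 of B cell follicles, had ratios of 1.87, 1.4 and 2.14 in PSGL1lo and 0.0669, 0.0676 and 0.0556 in naive cells (4.81 ± 0.14, adjusted p = 1.63e-12). Cxcr4, the CXCL12 receptor, had ratios of 2.71, 2.09 and 2.66 against 0.297, 0.26 and 0.257 (3.19 ± 0.15, adjusted p = 1.36e-10). S1pr2, which keeps cells inside germinal centres, had ratios of 4.59, 2.64 and 3.59 against 0.408, 0.409 and 0.374 (3.15 ± 0.15, adjusted p = 1.44e-10). None of the 3 overlapped between the groups, and each was also above both other CD44+ populations, S1pr2 by 1.61 ± 0.15 and 1.98 ± 0.15 (adjusted p = 1.16e-06 and 8.08e-08). The 4 that fell were Ccr7 and, named after their values were seen, S1pr1, which lets cells leave lymphoid tissue, at -2.45 ± 0.22, S1pr4 at -1.26 ± 0.10 and Gpr18 at -1.66 ± 0.13 (largest adjusted p = 3.44e-07).

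Receptors for contact with B cells gave a mixed picture. Icos, a costimulatory receptor, rose by 2.19 ± 0.17 from naive (adjusted p = 3.96e-08), and its ratios of 1.31, 1.02 and 0.977 lay among those of the CD62Llo PSGL1hi arrays (1.2, 1.38 and 0.905). Slamf6 and its adaptor gene Sh2d1a rose by 1.34 ± 0.13 (adjusted p = 6.61e-07) and 1.14 ± 0.20 (adjusted p = 0.000324; the second call was lost after quantile normalization). Tnfrsf4, the OX40 gene, rose by 1.97 ± 0.13 (adjusted p = 7.02e-09) and Izumo1r, which encodes folate receptor 4, by 1.52 ± 0.11 (adjusted p = 2.16e-08). The single member that fell was Il6ra, the interleukin 6 receptor gene, named after its value was seen, at -1.19 ± 0.27 (adjusted p = 0.00344). Against the other CD44+ populations the list held 18 higher and 3 lower members in PSGL1lo than in CD62Llo PSGL1hi cells (4.55% and 6.17% of all genes), and 20 higher and 1 lower than in CD62Lhi PSGL1hi cells (6.7% and 8.1% of all genes).

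Other genes among the largest rises belong to no such list. Gpm6b, a membrane glycoprotein best known from neurons, had ratios of 4.07, 8.96 and 4.79 in PSGL1lo and 0.0575, 0.0474 and 0.0486 in naive arrays (6.78 ± 0.40, adjusted p = 1.75e-09), with the second PSGL1lo array highest. Shtn1, which encodes shootin 1, a protein of axon growth, had ratios of 5.52, 4.83 and 5.1 against 0.126, 0.144 and 0.1 (5.40 ± 0.22, adjusted p = 3.13e-11). Stfa3, a cystatin-family protease inhibitor gene, rose from 0.536, 0.885 and 0.593 to 34.2, 14.3 and 25.5 (5.15 ± 0.38, adjusted p = 2.66e-08). The 2 groups did not overlap for these genes, although the 3 PSGL1lo arrays differed among themselves by over 1.5-fold for Gpm6b and Stfa3. Nrn1 (neuritin) rose by 5.67 ± 0.20, Scin, which severs actin filaments, by 5.54 ± 0.42, and Itgb8, the integrin chain that pairs with αv to activate TGF-β, by 6.29 ± 0.23 (adjusted p = 1.14e-11, 3.8e-08 and 1.44e-11). Its partner gene Itgav rose by 1.84 ± 0.11 (adjusted p = 2.37e-09; 1 of 4 other probe sets was called in the same direction).

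Cytokine and TNF family ligand genes rose broadly from naive: 22 of 39 measured were higher and 1 lower, with a median of 0.56. Over all tested genes 10.9% were higher and 12.3% lower. Against CD62Llo PSGL1hi cells 8 of the 39 were higher and 13 lower (4.55% and 6.17% of all genes), with a median of 0.01. Tnfsf11, the RANK ligand gene, had ratios of 2.63, 1.98 and 2.66 in PSGL1lo and 0.0954, 0.0893 and 0.0824 in naive cells (4.76 ± 0.20, adjusted p = 4.08e-11). Il2, the T cell growth factor gene, rose by 0.79 ± 0.15 (adjusted p = 0.00106). Il17a and Il9 differed by -0.12 ± 0.10 (adjusted p = 0.455) and -0.18 ± 0.11 (adjusted p = 0.293), with overlapping arrays. The single member that fell from naive was Osm, the oncostatin M gene, named after its value was seen, at -0.90 ± 0.09 (adjusted p = 1.14e-06).

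**Figure D3:**
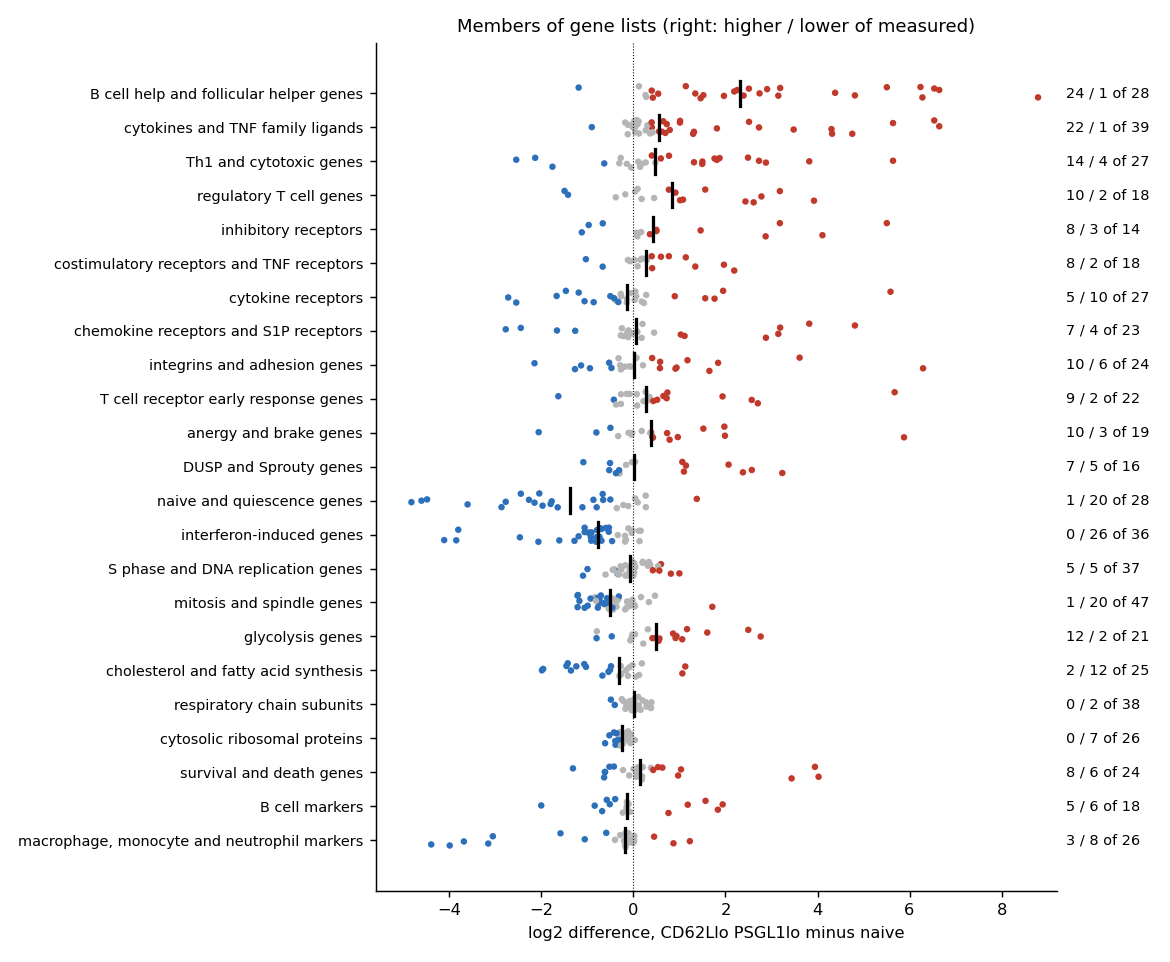
Each line is a gene list and each point a member, placed by its log2 difference of PSGL1lo minus naive cells; red and blue points passed the limma threshold (higher, lower), grey points did not, and the black bar is the median. B cell help genes spread to the right (24 higher and 1 lower of 28), interferon-induced genes lie to the left (0 higher and 26 lower of 36), and respiratory chain subunits stay near 0 (0 higher and 2 lower of 38).

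Of 14 genes of inhibitory receptors and their ligands 8 were higher and 3 lower than in naive cells (median 0.43). Pdcd1 and Btla are also members of the B cell help list. The ligand genes Pdcd1lg2 and, named after its value was seen, Cd274 were among those higher (2.87 ± 0.21 and 0.36 ± 0.09). Against CD62Llo PSGL1hi cells 2 of the 14 were higher and 4 lower (4.55% and 6.17% of all genes), with a median of 0.02. Pdcd1, which encodes PD-1, had ratios of 4.17, 2.85 and 4.0 in PSGL1lo and 0.0854, 0.0765 and 0.0776 in naive arrays, a 45.4-fold rise (5.51 ± 0.15, adjusted p = 1.63e-12). Lag3 had ratios of 0.986, 0.757 and 1.13 against 0.0517, 0.0492 and 0.0646 (4.11 ± 0.14, adjusted p = 7.19e-12). Both were clear of the naive arrays. Ctla4, which competes with CD28 for its ligands, rose by 3.18 ± 0.13 (adjusted p = 4.25e-11) and Btla by 1.46 ± 0.17 (adjusted p = 4.71e-06). Pdcd1 and Btla were above CD62Llo PSGL1hi cells too, by 1.62 ± 0.15 and 1.37 ± 0.17 (adjusted p = 1.81e-06 and 2.76e-05). Lag3 and Ctla4 differed from those cells by -0.40 ± 0.14 (adjusted p = 0.0932) and 0.40 ± 0.13 (adjusted p = 0.0711). The 3 members that fell, Lair1, Cd200r1 and Cd244a, were named after their values were seen, at -1.12 ± 0.19, -0.97 ± 0.17 and -0.67 ± 0.14 (adjusted p = 0.000235, 0.000343 and 0.0024).

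Genes that restrain T cell receptor signalling followed. Of 19 anergy and brake genes 10 were higher and 3 lower (median 0.39), the last being Dgka at -0.80 ± 0.10 and, named after their values were seen, Ndrg1 and Dok2. Rnf128, the E3 ubiquitin ligase GRAIL of anergic T cells, had ratios of 4.98, 3.18 and 4.14 in PSGL1lo and 0.0564, 0.0608 and 0.0936 in naive cells (5.88 ± 0.22, adjusted p = 1.63e-11), and it was 1.39 ± 0.22 above CD62Llo PSGL1hi cells (adjusted p = 0.00039). The phosphatase gene Ptpn22 rose by 1.99 ± 0.12 and the Ikaros-family gene Ikzf3 by 1.98 ± 0.12 (adjusted p = 3.37e-09 and 1.96e-09). Among MAP kinase phosphatase and Sprouty genes 7 of 16 rose and 5 fell, a count of falls that ran from 2 to 3 under quantile normalization, array centring, the highest-SD probe set and without any 1 of PSGL1lo replicates 2 and 3 and naive replicates 1 and 3. Dusp4 rose by 3.24 ± 0.20, Dusp14 by 2.57 ± 0.14, Spry1 by 2.38 ± 0.12 and Dusp1 by 2.07 ± 0.11 (largest adjusted p = 4.35e-09). The falls were those of Dusp7 (-1.09 ± 0.14, adjusted p = 1.36e-05) and, named after their values were seen, Dusp3, Dusp5, Dusp10 and Dusp22.

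Early response genes of the T cell receptor were at higher levels for 9 of 22 and lower for 2 (median 0.28). Over all tested genes 10.9% were higher and 12.3% lower. Bhlhe40, a factor that sustains cytokine output, had ratios of 1.8, 1.14 and 1.41 in PSGL1lo and 0.0358, 0.0282 and 0.0214 in naive cells (5.68 ± 0.18, adjusted p = 3.46e-12). This was a 51.1-fold difference with no overlap. Irf4 rose by 2.70 ± 0.10, Nfatc1 by 2.57 ± 0.11 and Egr2 by 1.94 ± 0.14 (largest adjusted p = 2.34e-08). Myc, the growth factor-induced regulator, went the other way, with ratios of 0.738, 0.651 and 0.868 in PSGL1lo and 2.58, 2.19 and 2.19 in naive cells (-1.63 ± 0.14, adjusted p = 1.24e-07). None of these genes differed between PSGL1lo and CD62Llo PSGL1hi cells at the threshold (adjusted p from 0.118 for Nfatc1 to 0.583 for Egr2). The 11 members of the list that did not pass against naive included Nr4a1, Nr4a2, Nr4a3, Egr3 and Cd69, named after their values were seen. They differed by 0.08 ± 0.13, -0.08 ± 0.12, -0.27 ± 0.10, -0.27 ± 0.10 and 0.30 ± 0.17 (smallest adjusted p = 0.0566, for Egr3). Ier2, the other member that fell, was named after its value was seen (-0.42 ± 0.14, adjusted p = 0.0397). With array centring or quantile normalization, or without PSGL1lo replicate 1 or 2, CD62Llo PSGL1hi replicate 1 or naive replicate 1 or 2, 1 member was lower, and with array weights 4. Of 12 AP-1 genes 5 were higher and 1, Mafk, lower (-0.71 ± 0.12, adjusted p = 0.000377). Batf (above), Fos, Junb, Maff and, named after its value was seen, Jund rose, Fos by 0.86 ± 0.16 (adjusted p = 0.000506) and Junb by 0.68 ± 0.17 (adjusted p = 0.0077; not called after quantile normalization).

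Of 27 Th1 and cytotoxic genes, 14 were higher and 4 lower than in naive cells, with a median of 0.48; after quantile normalization 9 were higher. Against CD62Llo PSGL1hi cells 2 of the 27 were higher and 20 lower (4.55% and 6.17% of all genes), with a median of -2.38. Ifng, the signature Th1 cytokine, had ratios of 0.73, 0.528 and 0.73 in PSGL1lo and 0.0144, 0.0123 and 0.0128 in naive arrays (5.64 ± 0.18, adjusted p = 3.46e-12). In CD62Llo PSGL1hi arrays its ratios were 2.82, 2.48 and 2.12, and PSGL1lo cells were at -1.91 ± 0.18 against them on the log2 scale (adjusted p = 1.83e-06). The 3 groups did not overlap, with PSGL1lo cells in the middle. Tbx21, the Th1 lineage factor, showed the same order: it was 2.49 ± 0.14 above naive (adjusted p = 1.01e-09) and at -2.11 ± 0.14 against CD62Llo PSGL1hi cells (adjusted p = 3.09e-08).

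The chemokine receptor gene Cxcr3 had ratios of 0.508, 0.482 and 0.661 in PSGL1lo, 0.0364, 0.0427 and 0.0369 in naive and 1.81, 1.66 and 1.83 in CD62Llo PSGL1hi arrays, a rise from naive of 3.82 ± 0.12 (adjusted p = 2.76e-12). Ccl3, an inflammatory chemokine gene, had ratios of 0.246, 0.186 and 0.245, 0.0277, 0.0337 and 0.0412 and 3.48, 2.93 and 3.05 in the same order (2.73 ± 0.14 from naive, adjusted p = 5.48e-10). For both genes PSGL1lo cells again lay between the other groups without overlap. Stat4 and Il12rb1, genes of a factor and a receptor chain for interleukin 12, rose by 1.5 ± 0.15 and 1.76 ± 0.13 (adjusted p = 1.59e-06 and 4.09e-08). Il12rb2, the gene of the other receptor chain, named after its value was seen, differed by -0.14 ± 0.11 with overlapping arrays (adjusted p = 0.436).

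Of the 4 members below naive cells, Eomes, which encodes a factor of memory and killer T cells, had ratios of 0.0886, 0.105 and 0.0901 in PSGL1lo and 0.109, 0.164 and 0.175 in naive cells (-0.63 ± 0.15, adjusted p = 0.00478), while the CD62Llo PSGL1hi arrays stood at 2.2, 1.82 and 2.1. Il18r1, the interleukin 18 receptor gene, had ratios of 0.125, 0.139 and 0.144 against 0.812, 0.796 and 0.77 in naive cells (-2.55 ± 0.13, adjusted p = 5.48e-10) and 2.25, 1.87 and 1.68 in CD62Llo PSGL1hi cells. Ctsw, a protease gene of killer cells, had ratios of 0.18, 0.165 and 0.166 against 0.599, 0.617 and 0.517 in naive cells (-1.76 ± 0.12, adjusted p = 8.4e-09). For these 3 genes PSGL1lo cells were the lowest population. Gzma, a granzyme gene named after its value was seen, was the other member that fell, to -2.13 ± 0.24 (adjusted p = 4.3e-06). Other cytotoxic members, named after their values were seen, went up or did not pass: Gzmk was at 1.5 ± 0.13 and Nkg7 at 0.77 ± 0.11 (adjusted p = 2.26e-07 and 5.53e-05), and Gzmb and Prf1 differed by 0.48 ± 0.28 and 0.11 ± 0.09 (adjusted p = 0.26 and 0.473). The NK receptor gene Klrd1 and the surface protein gene Cd7 fell likewise, to differences of -2.76 ± 0.29 and -3.47 ± 0.19 (adjusted p = 2.28e-06 and 8.7e-10). Prdm1, which encodes Blimp-1, the antagonist of Bcl6, was 0.60 ± 0.14 above naive (adjusted p = 0.00417), a sign that turned after quantile normalization (-0.33, adjusted p = 0.221), and it was at -2.64 ± 0.14 against CD62Llo PSGL1hi cells (adjusted p = 2.04e-09).

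**Figure D4:**
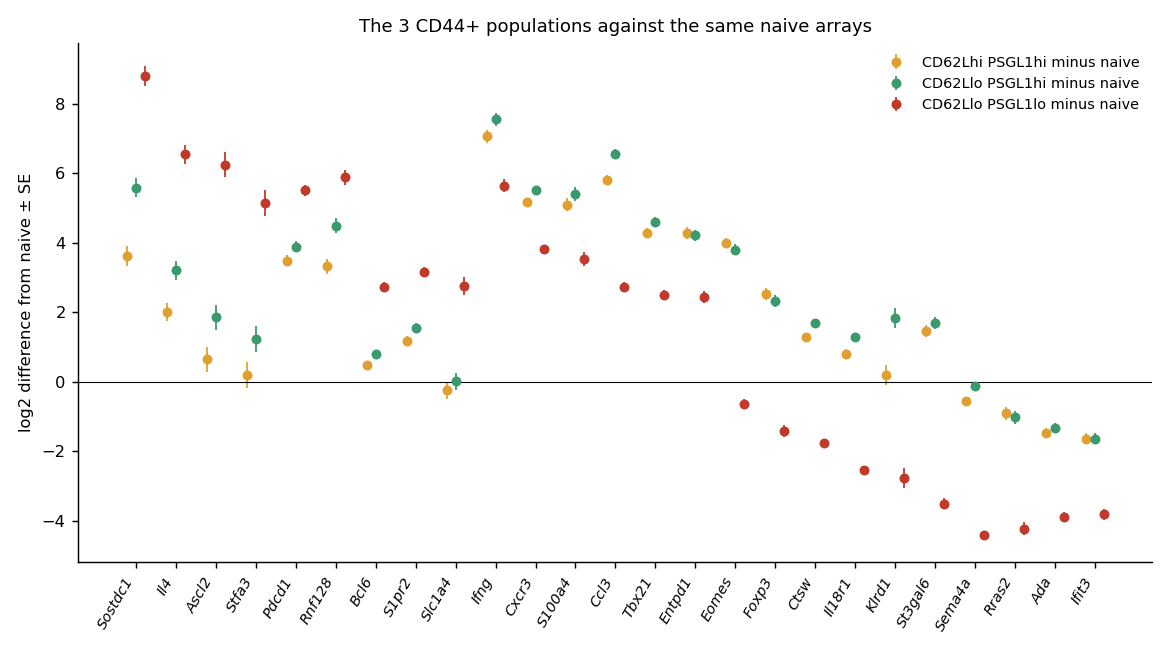
Log2 differences from the same 3 naive arrays ± SE for the 3 CD44+ populations. PSGL1lo cells (red) lie above the others from Sostdc1 to Slc1a4, above naive but below the others from Ifng to Entpd1, and below naive from Eomes to Ifit3; because the naive arrays are shared, the 3 values of a gene are not independent.

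Regulatory T cell genes split the list they belong to. Of 18 measured, 10 were higher and 2 lower than in naive cells (median 0.84; 6 higher after quantile normalization). The lineage factor gene Foxp3 had ratios of 0.182, 0.108 and 0.131 in PSGL1lo and 0.375, 0.367 and 0.359 in naive arrays (-1.42 ± 0.17, adjusted p = 7.44e-06), whereas CD62Llo PSGL1hi arrays had 2.25, 1.62 and 1.69. PSGL1lo cells were thus the lowest of the populations for Foxp3, with no overlap. Gpr83, another gene of regulatory cells, was at -1.5 ± 0.11 (adjusted p = 2.24e-08), and Il2ra, the interleukin 2 receptor chain CD25, differed by -0.38 ± 0.18 (adjusted p = 0.157; it passed, at -2.47, when each gene was read from its most variable probe set). The members that rose included Nrp1, a semaphorin receptor gene, by 3.92 ± 0.11, the actin-capping gene Capg by 2.78 ± 0.19 and Entpd1, the ectoenzyme CD39, by 2.43 ± 0.17 (adjusted p = 1.63e-12, 8.52e-09 and 1.12e-08; the other Capg probe set did not pass).

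Of 11 Th2 genes 3 were higher and 1 lower, against 10.9% and 12.3% of all tested genes: Nfil3 rose by 3.86 ± 0.23 (adjusted p = 2.11e-09), the lineage factor gene Gata3 by 1.27 ± 0.13 (adjusted p = 1.25e-06) and Il17rb by 0.51 ± 0.12 (adjusted p = 0.00581, lost after quantile normalization). The interleukin 4 receptor gene Il4ra had ratios of 0.475, 0.313 and 0.371 in PSGL1lo and 2.54, 2.49 and 2.49 in naive cells, so that it fell by 2.72 ± 0.13 (adjusted p = 2.08e-10) while Il4 rose. Of 6 Th17 genes 4 were higher (2 after quantile normalization): Rora by 1.95 ± 0.14, Il1r1 by 1.95 ± 0.15, Ahr by 1.16 ± 0.22 and Ccr6 by 1.11 ± 0.18 (largest adjusted p = 0.000859). Of 8 other Rora probe sets 5 were called in the same direction and 1 in the opposite one, and the other Il1r1 and Ahr probe sets did not pass. Il1r2, the decoy receptor for interleukin 1, had ratios of 2.24, 0.992 and 2.38 against 0.0294, 0.0413 and 0.0393 in naive cells (5.59 ± 0.28, adjusted p = 3.22e-10). The interleukin 1 signalling receptor gene Il1r1 was also above CD62Llo PSGL1hi cells by 1.79 ± 0.15 (adjusted p = 5.16e-07), and for Il1r2 that difference was 0.80 ± 0.28 (adjusted p = 0.0918).

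The quiescence programme of naive cells was lower. Of 28 measured members, 20 were lower and 1 was higher, with a median of -1.38. Satb1, a chromatin organiser of T cells, had ratios of 0.394, 0.331 and 0.435 in PSGL1lo and 10.7, 9.96 and 7.69 in naive cells (-4.60 ± 0.18, adjusted p = 2.6e-11). Klf2, which maintains quiescence and the exit receptor S1PR1, had ratios of 0.234, 0.338 and 0.212 against 1.92, 2.0 and 1.69 (-2.87 ± 0.15, adjusted p = 5.25e-10). Ccr7, the lymph node homing receptor gene, had ratios of 0.968, 1.01 and 0.994 against 7.16, 6.8 and 6.35 (-2.77 ± 0.19, adjusted p = 9.46e-09). PSGL1lo arrays were below every naive array for all 3 genes. Satb1 and Klf2 were also below the CD62Llo PSGL1hi level, by 1.31 ± 0.18 and 1.8 ± 0.15 (adjusted p = 9.53e-05 and 4.55e-07), whereas Ccr7 differed from it by 0.12 ± 0.19 (adjusted p = 0.82).

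Lef1 and Bach2, a Wnt pathway factor and a repressor of effector genes, fell by 1.97 ± 0.10 and 2.27 ± 0.11 (adjusted p = 5.48e-10 and 2.87e-10), and Lef1 was 0.58 ± 0.10 above the CD62Llo PSGL1hi level (adjusted p = 0.00118). The Tec family kinase gene Txk had ratios of 0.157, 0.202 and 0.173 in PSGL1lo and 4.15, 3.9 and 3.79 in naive cells (-4.48 ± 0.14, adjusted p = 3.46e-12). Dapl1 fell by 4.82 ± 0.24, the actin crosslinker gene Actn1 by 3.6 ± 0.18 and the laminin receptor chain gene Itga6 by 2.15 ± 0.14 (largest adjusted p = 5.63e-09). The 2 other Actn1 probe sets were called lower by less, at -1.175 and -0.87. Il7r, the interleukin 7 receptor gene of resting cells, was only -0.50 ± 0.13 from naive (adjusted p = 0.0103, lost after quantile normalization and without PSGL1lo replicate 3). Klf4, the 1 member that rose, was named after its value was seen (1.38 ± 0.19, adjusted p = 3.46e-05).

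Genes among the largest falls outside that list included Lypd6b, a surface protein of the Ly6 family, with ratios of 0.228, 0.24 and 0.295 in PSGL1lo and 9.86, 9.3 and 8.71 in naive cells (-5.20 ± 0.16, adjusted p = 2.45e-12). The adhesion gene Amigo2 had ratios of 1.09, 0.7 and 0.661 against 22.7, 22.6 and 23.1 (-4.84 ± 0.22, adjusted p = 9.96e-11), and in CD62Llo PSGL1hi arrays it stood at 0.909, 0.91 and 0.762. The other Amigo2 probe set was called lower too, at only -0.31 from naive (adjusted p = 0.0458). By the probe set shown, Amigo2 was high in the naive arrays and low in all 3 CD44+ populations. The alcohol dehydrogenase gene Adh1, the AMP deaminase gene Ampd1 and Pdlim4 had the same shape, at -4.19 ± 0.19, -4.11 ± 0.17 and -5.14 ± 0.35 (largest adjusted p = 1.09e-08), and their differences from CD62Llo PSGL1hi cells did not pass (adjusted p = 0.754, 0.96 and 0.795).

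Other falls set PSGL1lo cells apart from the PSGL1hi populations as well. Sema4a, a semaphorin gene, had ratios of 0.06, 0.0656 and 0.056 in PSGL1lo, 1.35, 1.27 and 1.19 in naive and 1.12, 1.06 and 1.37 in CD62Llo PSGL1hi arrays. It was the lowest in all 3 PSGL1lo arrays, at -4.39 ± 0.11 from naive and -4.28 ± 0.11 from CD62Llo PSGL1hi cells (adjusted p = 1.63e-12 and 1.61e-12). The poly(A) polymerase gene Tent5a had ratios of 0.081, 0.074 and 0.0693 against 1.95, 1.54 and 1.51 in naive and 0.894, 0.588 and 0.864 in CD62Llo PSGL1hi cells (-4.47 ± 0.15 from naive, adjusted p = 5.74e-12). Rras2, a small GTPase gene, was at -4.23 ± 0.19 from naive and -3.21 ± 0.19 from CD62Llo PSGL1hi cells (adjusted p = 7.8e-11 and 7.42e-09). Ada, the enzyme that removes adenosine, had ratios of 0.176, 0.159 and 0.228 in PSGL1lo, 2.77, 2.84 and 2.54 in naive and 1.23, 1.1 and 0.957 in CD62Llo PSGL1hi arrays (-3.87 ± 0.13 from naive, adjusted p = 4.99e-12). The ectoenzyme genes upstream of it moved upward from naive, Entpd1 as given and Nt5e, the CD73 gene, by 0.97 ± 0.13 (adjusted p = 3.72e-05; of 2 other Nt5e probe sets 1 was called higher and 1 lower).

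Genes of PSGL1's own glycosylation and of adhesion went both ways. Of 20 genes for making selectin ligands, the sugars on PSGL1 that selectins recognise, 6 were higher and 3 lower, St3gal6, B4galt1 and, named after its value was seen, Tpst2. St3gal6, a sialyltransferase gene of that pathway, had ratios of 0.0583, 0.0541 and 0.0492 in PSGL1lo, 0.679, 0.524 and 0.637 in naive and 2.23, 1.57 and 2.2 in CD62Llo PSGL1hi arrays. PSGL1lo arrays were lowest throughout, at -3.50 ± 0.16 from naive (adjusted p = 1.44e-10; 2 of 4 other probe sets were called in the same direction). The branching enzyme gene Gcnt1 was 2.05 ± 0.17 above naive (adjusted p = 1.1e-07) and at -1.51 ± 0.17 against CD62Llo PSGL1hi cells (adjusted p = 1.13e-05). Of 24 integrin and adhesion genes 10 were higher and 6 lower; besides Itgb8 and Itgav, Itgb1 rose by 3.61 ± 0.17 and Itgal, the LFA-1 chain gene, by 1.65 ± 0.10 (adjusted p = 2.01e-10 and 2.09e-09).

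Interferon-induced genes were lower in PSGL1lo cells, 26 of 36 measured and none higher, with a median of -0.76. The same list had 13 members lower and 0 higher than in CD62Llo PSGL1hi cells, and 12 lower and 0 higher than in CD62Lhi PSGL1hi cells. Over all genes 6.17% were lower and 4.55% higher than in CD62Llo PSGL1hi cells, and 8.1% lower and 6.7% higher than in CD62Lhi PSGL1hi cells. Ifit3, an antiviral protein gene, had ratios of 0.255, 0.184 and 0.255 in PSGL1lo and 3.45, 3.22 and 2.94 in naive arrays, 14-fold lower (-3.81 ± 0.16, adjusted p = 3.93e-11). Ifit1, also on chromosome 19, had ratios of 0.52, 0.408 and 0.448 against 2.73, 2.53 and 2.33 (-2.47 ± 0.15, adjusted p = 3.19e-09). The 2 groups lay apart for both, and the CD62Llo PSGL1hi arrays stood between them at 0.923, 0.926 and 1.28 for Ifit3 and 0.948, 0.88 and 1.18 for Ifit1. Oas2, which makes the activator of RNase L, had ratios of 0.778, 0.923 and 0.64 against 13, 14.1 and 13 (-4.11 ± 0.20, adjusted p = 2.21e-10), and it did not differ from CD62Llo PSGL1hi cells at the threshold (-0.26 ± 0.20, adjusted p = 0.57). Usp18, the enzyme that strips ISG15 from proteins, was at -3.85 ± 0.23 and Ifit2 at -2.06 ± 0.10 (adjusted p = 2.19e-09 and 1.8e-10). Stat2, the signalling partner of the interferon receptor, fell by 0.97 ± 0.12 (adjusted p = 9.51e-06).

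Promoters of these genes are known to hold a site for interferon regulatory factors, and the 250 bases before the annotated start were searched for GAAA followed after 2 bases of any kind by a second GAAA, on both strands (TTTC and TTTC on the other), with overlapping matches allowed. RefSeq's table for GRCm38.p6 held promoters of 26 of the 36 members, and 13 held the motif, against 3.13% of 14452 tested genes and 2.98% of all 32851 promoters. It was in 9 of the 19 members that were lower and in 4 of the other 7, so the motif did not separate the members by the call. A match describes letters and is no measured binding site. The promoters of 4 members that were lower and hold the motif are shown with the matching bases in capitals, all on the plus strand: Ifit3 at chr19:34583279-34583528, Ifit1 at chr19:34640639-34640888, Stat2 at chr10:128270248-128270497 and Igtp at chr11:58199306-58199555.
Ifit3: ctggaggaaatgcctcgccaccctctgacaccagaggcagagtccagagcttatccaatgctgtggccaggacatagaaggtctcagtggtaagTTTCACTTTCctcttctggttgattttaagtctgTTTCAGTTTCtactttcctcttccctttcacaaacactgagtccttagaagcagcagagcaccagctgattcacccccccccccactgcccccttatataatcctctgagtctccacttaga
Ifit1: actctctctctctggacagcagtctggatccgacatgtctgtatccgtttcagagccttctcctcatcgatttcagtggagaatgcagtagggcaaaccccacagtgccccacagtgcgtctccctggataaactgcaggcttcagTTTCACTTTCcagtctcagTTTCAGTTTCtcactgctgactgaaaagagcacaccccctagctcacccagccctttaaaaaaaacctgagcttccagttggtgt
Stat2: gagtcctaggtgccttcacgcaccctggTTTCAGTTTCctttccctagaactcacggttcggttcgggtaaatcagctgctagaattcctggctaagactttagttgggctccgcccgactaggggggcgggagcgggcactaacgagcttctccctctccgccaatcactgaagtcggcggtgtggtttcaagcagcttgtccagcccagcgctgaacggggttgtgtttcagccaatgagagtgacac
Igtp: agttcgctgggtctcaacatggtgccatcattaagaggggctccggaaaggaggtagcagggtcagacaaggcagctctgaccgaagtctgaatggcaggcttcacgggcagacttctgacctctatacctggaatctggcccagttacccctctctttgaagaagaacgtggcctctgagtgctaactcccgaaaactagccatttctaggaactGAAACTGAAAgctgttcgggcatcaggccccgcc
In these windows, picked because they hold the motif, Ifit3 and Ifit1 each held 2 matches. Stat2 (-0.97) and the GTPase gene Igtp (-0.91, shown after its value was seen) each held 1. Ifit2 (-2.06) and Irf7 (-1.28, named after its value was seen) fell by more than Stat2 and Igtp and held no match, so the 4 windows give no relation between matches and size.

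**Figure D5:**
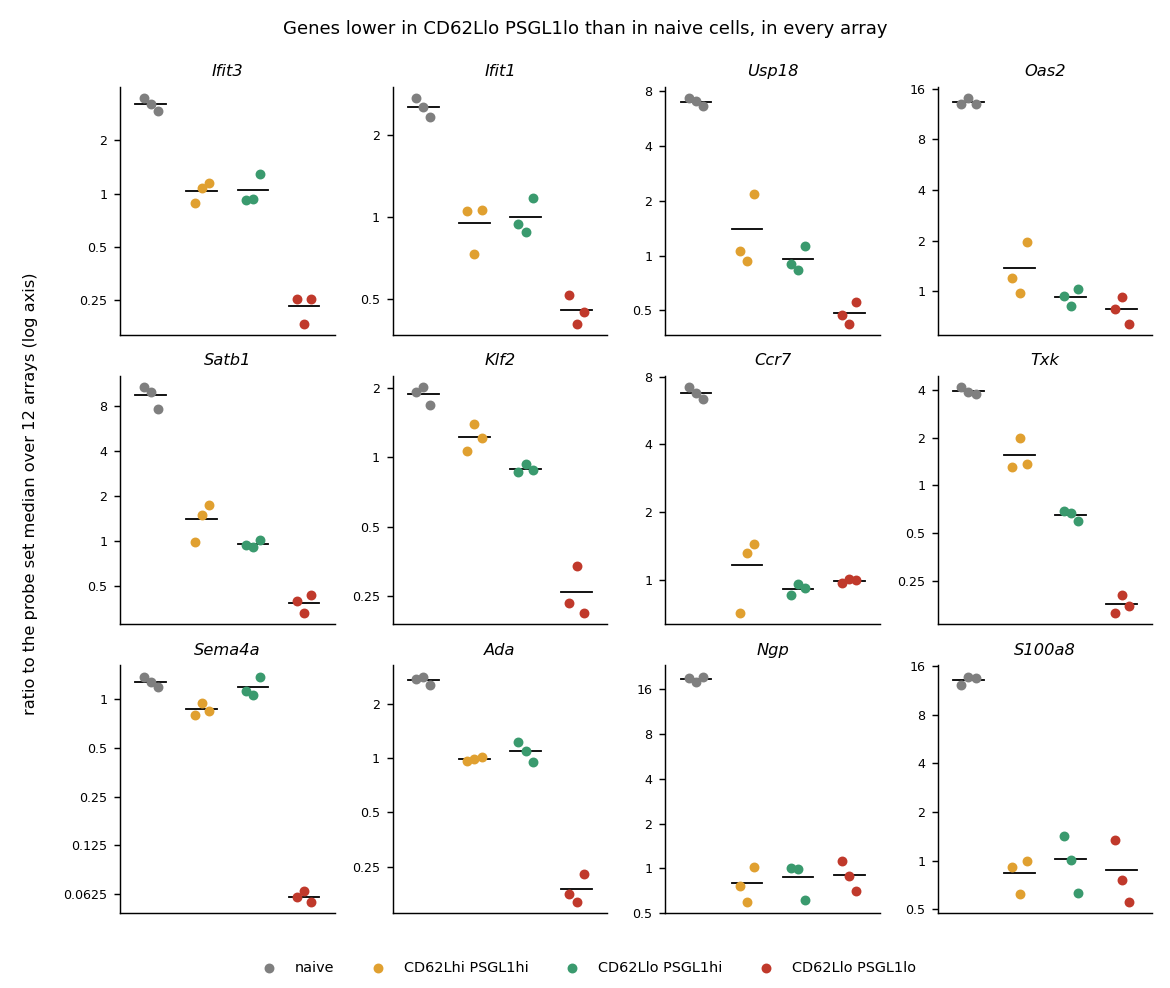
Ratios of 12 genes that were lower in PSGL1lo than in naive cells, in every array (log axis, 1 point per array, a bar at the mean of each population). PSGL1lo arrays are below every other array for Ifit3, Ifit1, Usp18, Satb1, Klf2, Txk, Sema4a and Ada, whereas for Ccr7, Ngp and S100a8 all 3 CD44+ populations lie together near 1 and the naive arrays stand above them.

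Genes of the dividing cell were low rather than high in PSGL1lo cells. Of 47 mitosis and spindle genes 20 were lower than in naive cells and 1 was higher, with a median of -0.50. That count fell to 5 lower after quantile normalization and to 13 without PSGL1lo replicate 1, PSGL1lo replicate 2, naive replicate 1 or naive replicate 2. Against CD62Lhi PSGL1hi cells 40 were lower and none higher (8.1% and 6.7% of all genes), with a median of -1.53. Mki67, the gene of the proliferation antigen Ki-67, had ratios of 0.591, 0.625 and 0.853 in PSGL1lo, 0.966, 0.88 and 0.927 in naive and 2.53, 3.02 and 3.62 in CD62Lhi PSGL1hi arrays. PSGL1lo arrays lay just below the naive arrays (-0.44 ± 0.16, adjusted p = 0.0568; it passed in the fit of the 6 arrays), while the CD62Lhi PSGL1hi arrays stood apart above both. Stmn1, a microtubule regulator, fell from naive by 1.06 ± 0.15 and the kinetochore gene Ndc80 by 0.74 ± 0.14 (adjusted p = 5.55e-05 and 0.000984). The single member that rose was Cdc25b, a phosphatase that starts mitosis, at 1.71 ± 0.14 (adjusted p = 6.74e-08).

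Of 37 DNA replication genes about as many moved as over all tested genes (10.9% higher and 12.3% lower): 5 were higher (Mcm6, Lig1, Gins1, Rrm1 and Rpa2) and 5 lower (Chaf1b, E2f2, Mcm4, Mcm7 and Ung), of which Rrm1, Rpa2, Mcm4, Mcm7 and Ung were named after their values were seen. Mcm6, a helicase subunit, rose by 1.00 ± 0.12 and the ligase gene Lig1 by 0.81 ± 0.13, while the chromatin assembly gene Chaf1b fell by 1.09 ± 0.11 (adjusted p = 7.16e-06, 0.0002 and 1.07e-06; the other Chaf1b probe set did not pass). Of 16 CDK inhibitors and G1 regulators 5 were higher (3 after quantile normalization) and 2 lower. Of the 7 kinase inhibitor genes among them 3 rose, Cdkn2b by 2.44 ± 0.15, Cdkn2c by 1.71 ± 0.10 and Cdkn1a by 1.00 ± 0.17 (largest adjusted p = 0.000257, for Cdkn1a, no longer called after quantile normalization), while Cdkn2d fell by 1.58 ± 0.17 (adjusted p = 1.94e-06). Cdkn1b, Cdkn1c and Cdkn2a did not pass (adjusted p = 0.0571, 0.294 and 0.0824). The other members that moved were Rb1, which rose, and, named after their values were seen, Cdk6, which rose, and Ccnd2, which fell. TTTGGCGC and TTTCCCGC were each in 3 of 32 DNA replication members with a promoter, and in 0.775% and 1.55% of tested genes. They were in 1 and 0 of the 4 such members that were higher, and in 2 and 3 of the other 28. CCAAT, the box known from mitotic promoters, was in 28 of 39 mitosis members with a promoter and in 39.4% of tested genes, and TTTGAA was in 13 of 39 and in 14.1%. CCAAT was in 11 of the 16 members that were lower and in 17 of the other 23, and TTTGAA in 6 of 16 and 7 of 23. Kif11, a spindle motor gene that was at -0.75 ± 0.18 (adjusted p = 0.00554) and is shown after its value was seen, holds 1 of each in the 250 bases before its start, at chr19:37376132-37376381 on the plus strand, in capitals as the reverse complements ATTGG and TTCAAA.
Kif11: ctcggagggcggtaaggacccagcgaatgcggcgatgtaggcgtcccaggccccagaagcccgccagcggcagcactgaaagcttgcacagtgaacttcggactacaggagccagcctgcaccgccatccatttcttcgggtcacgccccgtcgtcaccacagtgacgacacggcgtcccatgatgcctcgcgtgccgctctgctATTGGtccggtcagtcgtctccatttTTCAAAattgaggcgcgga

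Metabolic genes moved by pathway. Of 21 glycolysis genes 12 were higher and 2 lower (Pdk1 and, named after its value was seen, the lactate transporter gene Slc16a1), with a median of 0.48. Hif1a, the hypoxia factor that induces the pathway, had ratios of 2.7, 1.98 and 2.46 in PSGL1lo and 0.36, 0.331 and 0.352 in naive arrays (2.77 ± 0.15, adjusted p = 8.7e-10). Tpi1, the triose phosphate isomerase gene, had ratios of 3.39, 1.73 and 3.14 against 0.454, 0.507 and 0.445 (2.50 ± 0.21, adjusted p = 1.08e-07), the second PSGL1lo array being the lowest of its group. Both were also above CD62Llo PSGL1hi cells, by 1.10 ± 0.15 and 1.44 ± 0.21 (adjusted p = 0.000101 and 0.000141). The enolase gene Eno2 rose by 1.61 ± 0.21 and the aldolase gene Aldoa by 1.06 ± 0.15 (adjusted p = 1.76e-05 and 4.98e-05). Pdk1, a kinase gene that restrains the oxidation of pyruvate in mitochondria, fell by 0.80 ± 0.11 (adjusted p = 2.23e-05). ACGTG, the core of the hypoxia response element, was in 12 of 20 glycolysis members with a promoter and in 22.5% of tested genes. It was in 8 of the 12 members that were higher and in 4 of the other 8.

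Respiratory chain subunits stayed near the naive level, 2 of 38 lower and none higher (median 0.01): Ndufb8 at -0.49 ± 0.17 and Uqcrfs1 at -0.40 ± 0.13 (adjusted p = 0.0449 and 0.0396), both lost under quantile normalization and several left-out arrays. Of 26 cytosolic ribosomal protein genes 7 were lower and none higher (median -0.26; 2 lower after quantile normalization and 4 without PSGL1lo replicate 2, naive replicate 1 or naive replicate 3). Of 25 genes of cholesterol and fatty acid synthesis 12 were lower and 2 higher. Sqle, the squalene epoxidase gene, had ratios of 0.444, 0.351 and 0.465 in PSGL1lo and 1.81, 1.66 and 1.51 in naive cells (-1.99 ± 0.12, adjusted p = 2.97e-09). Idi1 fell by 1.96 ± 0.15 and Mvd by 1.45 ± 0.15, both enzymes of isoprenoid synthesis (adjusted p = 4.12e-08 and 1.86e-06). Against that trend the desaturase gene Scd2 rose by 1.06 ± 0.10 (adjusted p = 4.48e-07), as did Pmvk, named after its value was seen, by 1.13 ± 0.16 (adjusted p = 4.74e-05). The motif TCACNCCAC (N for any base), added after the values were seen, was in 1 of 19 members of this list with a promoter and in 1.27% of tested genes.

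Amino acid transporter genes had 5 of 13 members higher (Slc1a4, Slc7a7, Slc43a2, Slc38a1 and, named after its value was seen, Slc1a5) and 1 lower. Over all tested genes 10.9% were higher and 12.3% lower. Slc1a4, a transporter of neutral amino acids, had ratios of 10.02, 4.04 and 7.56 in PSGL1lo, 1.16, 0.861 and 0.995 in naive and 0.949, 1.28 and 0.847 in CD62Llo PSGL1hi arrays. All 3 PSGL1lo arrays were high, and the other populations lay near 1: the difference was 2.76 ± 0.25 from naive and 2.74 ± 0.25 from CD62Llo PSGL1hi cells (adjusted p = 3.5e-07 and 1.2e-06). Slc7a7 rose by 1.57 ± 0.19 and Slc38a1 by 1.10 ± 0.11, while Slc38a2 fell by 1.00 ± 0.16 (adjusted p = 1.1e-05, 1.59e-06 and 0.000151). In the unfolded protein response 6 of 26 genes were higher and 3 lower, the falls being about as frequent as over all tested genes. Atf6, a sensor of the endoplasmic reticulum, was at 2.06 ± 0.10 and the chaperone gene Hspa5 at 0.76 ± 0.12 (adjusted p = 3.36e-10 and 0.000151). The falls were those of Trib3 (-0.65, adjusted p = 0.166 after quantile normalization) and, named after their values were seen, Ddit3 and Eif2ak3.

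Survival and death genes were mixed, 8 of 24 higher and 6 lower, against 10.9% and 12.3% of all tested genes. Pmaip1, which encodes the death protein NOXA, rose by 4.02 ± 0.26, and the inflammatory caspase genes Casp4 and Casp1 by 3.94 ± 0.16 and 3.44 ± 0.18 (largest adjusted p = 5.75e-09). Bcl2l11, the gene of the death protein BIM, fell by 1.31 ± 0.11 (adjusted p = 9.27e-08). The other falls, named after their values were seen, included the survival genes Bcl2, Bcl2l1 and Mcl1, at -0.62 ± 0.10, -0.62 ± 0.11 and -0.64 ± 0.14. Casp6 and Casp8 were at -0.52 ± 0.13 and -0.42 ± 0.11 (largest adjusted p of these falls = 0.0121). Of 27 cytokine receptor genes 10 were lower and 5 higher (Il1r1, Il1r2, Il12rb1 and, named after their values were seen, Il2rb and Il15ra). Cish, a brake on STAT5 signals, had ratios of 0.341, 0.304 and 0.377 in PSGL1lo, 0.995, 1.00 and 0.948 in naive and 1.87, 1.55 and 1.93 in CD62Llo PSGL1hi arrays (-1.53 ± 0.12 from naive, adjusted p = 9.02e-08). PSGL1lo arrays were the lowest of the 3 groups for Cish. The calcium-binding genes S100a4 and S100a6 rose from naive by 3.54 ± 0.19 and 3.70 ± 0.18 and lay below CD62Llo PSGL1hi cells by 1.87 ± 0.19 and 1.81 ± 0.18 (adjusted p = 7.89e-10, 2.34e-10, 4.54e-06 and 3.1e-06).

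Markers of other cells moved with the comparison in part. Of 26 macrophage, monocyte and neutrophil markers 8 were lower in PSGL1lo than in naive cells and 3 higher (Cd68, Mpo and Hmox1, named after their values were seen); the list's mean ratio was 3.20 to 3.39 in naive and 0.87 to 1.08 in PSGL1lo arrays. The widest gaps were in granule genes of neutrophils: Ngp had ratios of 18.9, 17.9 and 19.4 in naive and 1.13, 0.888 and 0.707 in PSGL1lo arrays (-4.39 ± 0.21, adjusted p = 1.92e-10), and S100a8 had 12.2, 13.7 and 13.5 against 1.33, 0.757 and 0.556 (-3.99 ± 0.29, adjusted p = 2.5e-08). S100a9, Ltf and Camp were at -3.68 ± 0.19, -3.15 ± 0.18 and -3.05 ± 0.13 (largest adjusted p = 1.87e-09). All 3 naive arrays were high for these genes, and the PSGL1hi arrays were near 1 as well. Of the list's other members Lyz2, the lysozyme gene of macrophages and neutrophils, named after its value was seen, and the Fc receptor gene Fcgr3 were lower too, at -1.58 ± 0.48 and -1.06 ± 0.18 (adjusted p = 0.0244 and 0.000373). Csf1r, Adgre1 and Cd14 did not pass (-0.40 ± 0.24, -0.18 ± 0.13 and -0.12 ± 0.12, adjusted p = 0.29, 0.391 and 0.553). The part of such RNA in the falls described, those of interferon-induced genes included, was not tested.

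B cell markers went both ways, 5 of 18 higher (Cd22, H2-Eb1, Cd74, H2-Aa and, named after its value was seen, Spib) and 6 lower, with mean ratios of 0.919 to 1.17 in PSGL1lo and 0.987 to 1.01 in naive arrays. Ms4a1, the CD20 gene, was at -2.0 ± 0.26 and Cd79b at -0.68 ± 0.11 (adjusted p = 1.6e-05 and 0.000119), and Cd79a differed by -0.15 ± 0.12 (adjusted p = 0.45). Cd22 rose by 1.94 ± 0.19, the MHC class II genes H2-Eb1 and H2-Aa by 1.84 ± 0.24 and 1.18 ± 0.24, and their invariant chain gene Cd74 by 1.57 ± 0.21 (largest adjusted p = 0.00171). Of 10 plasma cell markers 6 were higher and none lower (2 higher after quantile normalization); Jchain rose by 2.59 ± 0.26 (adjusted p = 1.06e-06), while Sdc1 and Tnfrsf17 differed by 0.02 ± 0.15 and 0.20 ± 0.14 (adjusted p = 0.947 and 0.364). Among 11 markers of NK and CD8 T cells none was higher and 5 were lower: Klrd1, Cd7 and Fcgr3 besides Cd8a at -0.68 ± 0.10 and Cd8b1 at -0.70 ± 0.14 (adjusted p = 7.08e-05 and 0.00105; 1 of 4 other Cd8a probe sets was called in the same direction). Dendritic cell markers had 3 of 15 higher (Cd83, H2-Aa and H2-Ab1) and 1 lower (Bst2, not called after quantile normalization or without PSGL1lo replicate 2, naive replicate 1 or naive replicate 2), with Cd83, which activated T cells also express, at 4.45 ± 0.19 (adjusted p = 4.84e-11). The erythroid and platelet list had 2 of 11 lower (Car2 and Itga2b), and the stromal list 2 of 15 higher (Dcn and Kdr). Over all tested genes 12.3% were lower and 10.9% higher. Dcn was not called with only the 6 arrays or without PSGL1lo replicate 1 or 3, CD62Llo PSGL1hi replicate 3 or naive replicate 1 or 2. The part of other cells in the rises of B cell help genes was not tested.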

How the data were processed

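RNA of the sorted cells was hybridised to Affymetrix mouse whole-genome arrays; MAS5 is named per the submitters' processing notes, with no version given. The deposited values are ratios: row medians over the 12 arrays were within 0.002 of 1 for 99.7% of 45101 probe sets, and no value was 0 or below. No pseudocount or brightness filter was used. The platform annotation gave 1 gene to 34945 probe sets. For each gene 1 probe set was kept, by its suffix, then its RefSeq target, then the lowest number.

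Log2 ratios of all 12 arrays were tested in limma 3.58.1 (R 4.3.3; lmFit, eBayes), with 1 mean per population, 8 residual degrees of freedom and two-sided tests. The median SE was 0.118, which the number of arrays limits. On simulated data for PSGL1lo against naive cells over 18193 genes, 94% of 100 genes changed by 1 on the log2 scale and 99% of 100 changed by 2 were recovered, and 5.39% of calls fell on unchanged genes.

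Named were the sorting markers, Fas, the 15 largest rises and falls among called genes without overlap, up to 5 members of each of 42 lists by p, and T cell state genes; others are marked. The comparison, lists and motifs were chosen with earlier results of these data known. For CD62Llo PSGL1hi samples a description gives a different gate; titles were used. Alternatives covered normalization, probe sets, arrays fitted, a replicate block, robust priors, array weights, a 1.5-fold threshold and left-out arrays. Same-numbered arrays were checked for pairing and not treated as pairs.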

Additional observations from a re-analysis of the deposited data

How the results depend on the processing

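Of 224 named genes under 22 settings, 157 kept their call and direction throughout and 1 reversed: Prdm1, at -0.33 after quantile normalization (adjusted p = 0.221) against 0.60 as reported. Of 204 called genes, 22 lost the call under at least 1 setting besides the 1.5-fold threshold. The count of 4221 genes became 1167 when tested with limma's treat against a 1.5-fold change, 720 higher and 447 lower. Quantile normalization gave 3050 genes, with 1624 higher and 1426 lower, and centring each array on its median gave 2246 higher and 2030 lower, so under both more genes were higher than lower, the reverse of the reported 1976 and 2245. With 1 array left out the count ran from 3459 to 4374, genes higher from 1658 to 2427 and genes lower from 1745 to 2359. PSGL1lo replicate 2 had the lowest array weight (0.378). The correlation of deviations of same-numbered PSGL1lo and naive arrays was 0.2, 0.00403 and -0.125, which gives no pairing; with a replicate block the count was 4061 in the 6 arrays and 4809 in all 12. A planned filter on dim probe sets could not be run on ratios. Signal over background is unknown, so the size of a fold change from a low ratio is uncertain.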
